A study of Homo sapiens with 12 samples.

Results

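Interferon-stimulated genes encode proteins that cells make against viruses, and 9 of them were followed here in HK-2 cells treated with Kbr: IFIT1, IFIT2, IFIT3, IFIT5, IFITM1, ISG15, IFI6, OAS1 and MX1. Their probe sets were taken by symbol from the annotation of the arrays. These genes and the lists below were chosen with earlier results of these data known. Shares of all probe sets or genes set beside their counts are thus a description, not a test. The 9 genes, of 19775 with a probe set of their own, are covered by 14 of the 54675 probe sets, a probe set being a group of array probes for one transcript. HK-2 cells derive from the proximal tubule of a human kidney and were immortalised for culture. The Kbr 24 h group was given Kbr, a compound known here by that label alone, at what the labels call a high dose for 24 h, and the control 24 h group its vehicle for the same time. The Kbr 48 h and control 48 h groups were treated likewise for 48 h. All groups were grown in the same hormone-supplemented medium, seeded the day before and treated near confluence, and each had 3 biological replicates, 12 Affymetrix arrays in all. No concentration is given in the sources used here, and this is a single cell line grown without immune cells.

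Type I interferons act through the receptor chains IFNAR1 and IFNAR2 and the kinases JAK1 and TYK2, which activate STAT proteins. Together with IRF9 these bind the interferon-stimulated response element in front of the genes described here. IRF1 and IRF3 can bind similar elements, so that part of these genes, the IFIT family among them, can also be switched on without secreted interferon. The IFIT proteins bind viral RNA and stall its translation, IFITM proteins block virus entry at membranes, ISG15 is a ubiquitin-like protein attached to other proteins, OAS1 makes a small oligoadenylate messenger when it meets double-stranded RNA, and MX1 is a GTPase that traps viral nucleocapsids.

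The 4 IFIT members are neighbours on chromosome 10. In RefSeq's annotation of GRCh38.p14, IFIT2 lies at chr10:89302046-89309271, IFIT3 at chr10:89327997-89340968, IFIT1 at chr10:89392623-89406487 and IFIT5 at chr10:89414568-89420997. IFITM1, at chr11:314040-315272, stands between IFITM2 at chr11:307816-309395 and IFITM3 at chr11:319676-320860. The promoter windows below, from RefSeq's GRCh38.p14 tables, run from 250 bases before to 50 after a transcription start. They are shown because IFIT1 and IFIT3 were higher with Kbr at 24 h, IFIT5 was lower at 48 h and IFITM1 was lower at both times. Capitals mark each match to the core of the interferon-stimulated response element, searched as GAAANNGAAA and, for the other strand, TTTCNNTTTC. All 5 windows are on the plus strand, and IFIT3 has 2 annotated starts.
IFIT1, chr10:89392373-89392672: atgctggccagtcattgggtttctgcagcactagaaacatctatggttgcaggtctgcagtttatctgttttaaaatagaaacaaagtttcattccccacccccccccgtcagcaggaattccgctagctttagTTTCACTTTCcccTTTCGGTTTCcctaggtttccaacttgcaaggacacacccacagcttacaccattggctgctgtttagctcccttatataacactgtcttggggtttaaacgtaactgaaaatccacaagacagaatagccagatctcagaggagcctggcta
IFIT3 start 1, chr10:89327747-89328046: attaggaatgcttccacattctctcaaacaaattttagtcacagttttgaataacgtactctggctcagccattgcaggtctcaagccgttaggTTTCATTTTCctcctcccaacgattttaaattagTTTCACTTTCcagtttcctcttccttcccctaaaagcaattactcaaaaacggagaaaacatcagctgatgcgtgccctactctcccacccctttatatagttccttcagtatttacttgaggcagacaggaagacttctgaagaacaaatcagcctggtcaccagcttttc
IFIT3 start 2, chr10:89332279-89332578: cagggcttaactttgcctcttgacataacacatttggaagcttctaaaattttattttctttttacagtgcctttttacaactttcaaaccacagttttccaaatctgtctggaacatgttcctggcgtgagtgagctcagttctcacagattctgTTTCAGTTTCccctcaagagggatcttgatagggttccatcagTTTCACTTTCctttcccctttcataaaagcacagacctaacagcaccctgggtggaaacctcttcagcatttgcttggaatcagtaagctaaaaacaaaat
IFIT5, chr10:89414318-89414617: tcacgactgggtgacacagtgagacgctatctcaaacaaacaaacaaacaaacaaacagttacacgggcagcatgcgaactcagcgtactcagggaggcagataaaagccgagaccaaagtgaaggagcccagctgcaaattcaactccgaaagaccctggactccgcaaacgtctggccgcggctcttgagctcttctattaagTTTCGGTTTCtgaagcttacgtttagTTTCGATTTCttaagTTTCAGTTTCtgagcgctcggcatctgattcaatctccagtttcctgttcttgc
IFITM1, chr11:313790-314089: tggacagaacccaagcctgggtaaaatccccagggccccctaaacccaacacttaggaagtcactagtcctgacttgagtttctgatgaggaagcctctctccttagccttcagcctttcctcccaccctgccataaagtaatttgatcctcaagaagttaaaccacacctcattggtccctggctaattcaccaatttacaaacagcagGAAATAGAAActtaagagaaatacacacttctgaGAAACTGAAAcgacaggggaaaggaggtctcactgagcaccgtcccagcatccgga

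Each of these 5 windows holds at least 2 matches. In IFIT1 the matches begin at -116 and -103 from the start, as the plot of motif positions shows, and in IFITM1 they begin at -40 and -6. IFIT5 has 3 matches, at -45, -19 and -4. The promoter table held windows for 8 of the 9 genes and 11 starts, and had no entry for IFIT2. Of the 11 windows 9 held a match and 7 held 2 or more, where the overlapping matches of ISG15 were counted separately. The search asked for 2 bases between the repeats. The OAS1 window and the window of MX1 start 2 had no such match, but each holds the repeats with 1 base between them. Over all 35116 windows of the table, 3.57% held a match and 0.259% held 2 or more. The core was therefore present in the windows of IFIT1 and IFIT3, which were higher with Kbr, and in that of IFITM1, which was lower, and a match describes only these letters.

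**Figure D1:**
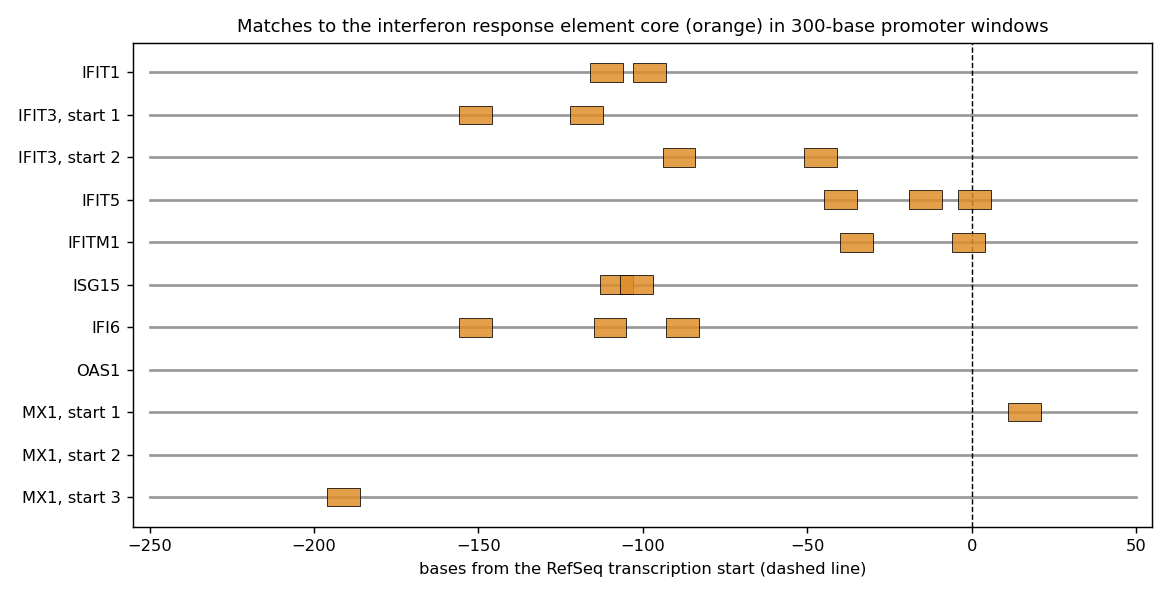
Positions of matches to the interferon response element core (orange boxes) in the 300-base promoter windows of 8 genes, with the distance from the annotated transcription start in bases on the x axis and the start as a dashed line. IFIT1, both IFIT3 windows and IFITM1 hold 2 matches each, IFIT5 and IFI6 hold 3, and OAS1 holds none. Only repeats with 2 bases between them were searched, so the closer repeats of OAS1 are not marked.

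Levels are GCRMA values on the log2 scale, in which each probe set is summarised after a correction for unspecific binding, so that a difference of 1 is a change of 2-fold. They can be compared between arrays for a probe set, not between probe sets. Differences were tested with limma over all probe sets whose value exceeded 4 in at least 3 arrays, 22215 in all, and a probe set was called at a Benjamini-Hochberg adjusted p under 0.05. Of the 14 probe sets of these genes 11 passed that filter, and both probe sets of OAS1 and the only one of MX1 did not. Array medians lay between 2.89 and 2.96. Those reading the 18S and 28S ribosomal RNAs were higher in the Kbr arrays than in the control arrays of the same time, 28S at 7.12 to 7.48 in Kbr and 6.80 to 6.91 in control arrays at 24 h, and their part in the results was not tested. Kbr 48 h replicate 3 stood apart, with a root mean square distance of 0.300 from the mean of its group, against 0.174 to 0.241 in the other arrays. Most 48 h values and the 48 h counts that it changes are therefore also given without it. Shares of all genes set beside those counts are from the fit to all 12 arrays. With an array left out, 10522 to 12015 of all tested probe sets were called at 48 h, against 12130 with all arrays. Replicate numbers pair the arrays across groups, and a fit with the number as a block is given where it changes a call or a count. Between Kbr and control that fit called 41.7% of all probe sets at 24 h and 65.5% at 48 h, in either direction. Counts with the block are to be read beside these shares. At an unadjusted p under 0.05 limma without the block gave 8595 of the 22215 probe sets at 24 h and 13348 at 48 h, in either direction. Unadjusted counts between Kbr and control are to be read beside these.

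At 24 h, Kbr cultures had more IFIT1, IFIT2 and IFIT3 message and less IFITM1 message than control cultures. The 5 probe sets of these IFIT genes were the ones called higher among the 11 tested, and the 2 probe sets that read IFITM1 were called lower. Over all tested probe sets 11.3% were called higher and 14.4% lower. At 48 h limma called 0 probe sets of the 9 genes higher (also 0 at an unadjusted p under 0.05), where 26.8% of all were, and 4 were called lower, where 27.8% of all were. These 4 were both probe sets of IFIT5 and both that read IFITM1. The arrays read RNA from whole cultures, in which fewer cells of a type and less RNA per cell cannot be told apart.

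**Figure D2:**
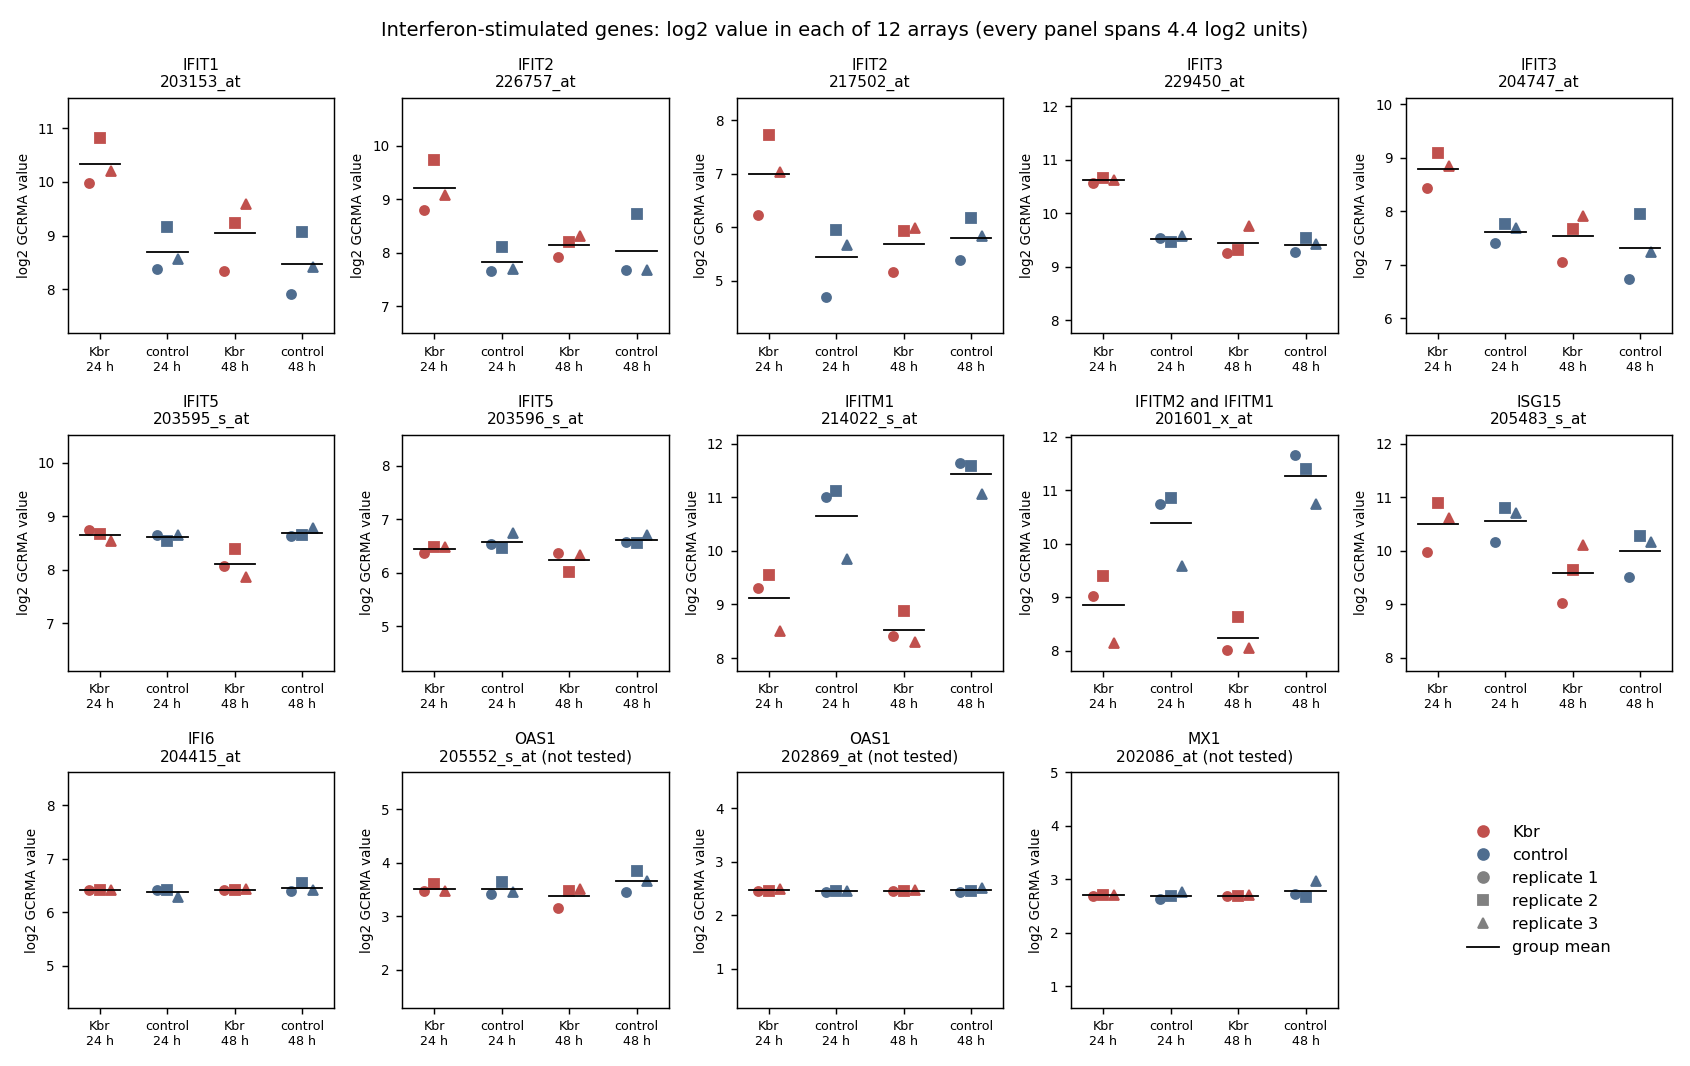
Log2 GCRMA value of each of the 14 probe sets (y axis) in every array, with Kbr left of control at 24 h and then at 48 h on the x axis, replicate numbers as symbols and group means as bars. IFIT1, IFIT2 and IFIT3 stand above the controls at 24 h and overlap them at 48 h, IFITM1 stands below them at both times, and OAS1 and MX1 stay at or below 3.84.

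IFIT1 binds RNA that lacks the methylation of host caps. Its probe set 203153_at read 9.99, 10.83 and 10.20 in Kbr 24 h replicates 1, 2 and 3, against 8.37, 9.16 and 8.56 in the control 24 h replicates. The lowest Kbr array was thus above the highest control array. The log2 fold change was 1.64 (SE 0.38, adjusted p = 0.00995), or 3.12-fold. Set against the control of the same number, the 3 differences were 1.62, 1.67 and 1.64, with an SD of 0.02, while the replicates within each group lay further apart. Replicate 1 was the lowest array of its group in 4 of 4 groups.

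At 48 h IFIT1 read 8.33, 9.24 and 9.59 in Kbr arrays, against 7.91, 9.07 and 8.41 in control arrays. The groups overlapped, and the difference of 0.59 was not called (adjusted p = 0.206), but the fit that blocks on the replicate number called it (adjusted p = 0.0307). All 3 numbered pairs were above 0 at 0.43, 0.18 and 1.18, the highest from the array that stood apart. With that array left out the difference was 0.33 (adjusted p = 0.521).

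IFIT2, a partner of IFIT1 and IFIT3 that is also linked to cell death, had 2 probe sets. The first, 226757_at, read 8.80, 9.73 and 9.08 in Kbr arrays at 24 h, against 7.65, 8.11 and 7.70 in control arrays. The groups did not overlap, and IFIT2 rose by 1.38 (SE 0.30, adjusted p = 0.00799), or 2.61-fold. At 48 h the same probe set read 7.91, 8.19 and 8.31 in Kbr arrays, against 7.68, 8.73 and 7.67 in control arrays. Control replicate 2 was then the highest of the 6 arrays, the difference was 0.11 (adjusted p = 0.789, and 0.02 without Kbr 48 h replicate 3), and the pairs at 0.22, -0.55 and 0.64 did not share a sign.

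The dimmer probe set of IFIT2, 217502_at, read 6.22, 7.73 and 7.04 in Kbr arrays at 24 h, against 4.70, 5.95 and 5.66 in control arrays. It rose by 1.56 (SE 0.42, adjusted p = 0.0194), and its pairs at 1.51, 1.79 and 1.38 lay closer together than the replicates of either group. Leaving out Kbr 24 h replicate 2, Kbr 24 h replicate 3 or control 24 h replicate 1 ended the call (adjusted p = 0.073, 0.0551 and 0.0796). At 48 h its difference was -0.10 (adjusted p = 0.849), and -0.25 without Kbr 48 h replicate 3. Both probe sets of IFIT2 therefore gave a rise at 24 h and no call at 48 h.

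IFIT3, which stabilises IFIT1 and bridges signalling proteins, also had 2 probe sets. Probe set 229450_at read 10.57, 10.66 and 10.63 in Kbr arrays at 24 h, against 9.54, 9.46 and 9.58 in control arrays. The means of 10.62 ± 0.04 in Kbr and 9.52 ± 0.06 in control cultures (SD, n = 3 each) differed by 1.10 (SE 0.14, adjusted p = 0.000441), or 2.14-fold. At 48 h the values were 9.25, 9.32 and 9.77 in Kbr arrays, against 9.28, 9.53 and 9.43 in control arrays. These overlapped, and the difference was 0.04 (adjusted p = 0.842) with all arrays and -0.13 (adjusted p = 0.314) without Kbr 48 h replicate 3, the highest array of the 6.

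The other IFIT3 probe set, 204747_at, read 8.43, 9.10 and 8.85 in Kbr arrays at 24 h, against 7.41, 7.76 and 7.69 in control arrays. It rose by 1.18 (SE 0.31, adjusted p = 0.018). Leaving out any of the same 3 arrays ended that call too (adjusted p = 0.0674, 0.0537 and 0.0692). At 48 h its difference was 0.24 (adjusted p = 0.543), and 0.05 without Kbr 48 h replicate 3. Fitted over all probe sets, with no filter, the 24 h calls of IFIT3 204747_at and IFIT2 217502_at ended (adjusted p = 0.0723 and 0.0818), and with the arrays of that time alone that of IFIT2 217502_at did (0.0504).

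IFIT5, the last gene of the chromosome 10 row, binds RNA with triphosphate ends. It was not called at 24 h, when its neighbours rose. Probe set 203595_s_at read 8.75, 8.68 and 8.54 in Kbr arrays at 24 h, against 8.66, 8.55 and 8.66 in control arrays, a difference of 0.03 (SE 0.13, adjusted p = 0.87). At 48 h it read 8.07, 8.39 and 7.86 in Kbr arrays, against 8.63, 8.65 and 8.78 in control arrays. Every Kbr array was then below every control array, and IFIT5 fell by 0.58 on the log2 scale (SE 0.13, adjusted p = 0.00311), to 0.668 of control. With Kbr 48 h replicate 3, the lowest array, left out, the difference was -0.46 (adjusted p = 0.00923).

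A second IFIT5 probe set, 203596_s_at, read 6.38, 6.01 and 6.34 in Kbr arrays at 48 h, against 6.57, 6.56 and 6.71 in control arrays. The difference was -0.37 (SE 0.12, adjusted p = 0.0223), or -0.42 without Kbr 48 h replicate 3, and -0.13 at 24 h (adjusted p = 0.438). The 48 h call was lost with Kbr 48 h replicate 2 or control 48 h replicate 3 left out (adjusted p = 0.0933 and 0.0734), under quantile normalization (-0.23, adjusted p = 0.141) and with the groups of that time alone (adjusted p = 0.0675). Its direction was the same in each of these fits.

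IFITM1, which holds viruses at the cell surface, went the other way from IFIT1 at 24 h. Probe set 214022_s_at read 9.30, 9.56 and 8.51 in Kbr arrays at 24 h, against 11.00, 11.12 and 9.85 in control arrays. Replicate 3 was the lowest array of both groups, and no Kbr array reached a control array. IFITM1 fell by 1.53 on the log2 scale (SE 0.36, adjusted p = 0.0105), to 0.346 of control, with pairs at -1.70, -1.56 and -1.34. The Kbr mean was 9.12 ± 0.55 and the control mean 10.65 ± 0.70 (SD, n = 3 each).

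At 48 h IFITM1 read 8.42, 8.88 and 8.29 in Kbr arrays, against 11.64, 11.58 and 11.07 in control arrays. The gap between the highest Kbr and the lowest control array was wider than the range of either group. The log2 fold change was -2.90 (SE 0.36, adjusted p = 6.45e-05), which is 0.134 of control, with pairs at -3.22, -2.70 and -2.78. It was -2.78 without Kbr 48 h replicate 3 (adjusted p = 0.000345).

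Probe set 201601_x_at is annotated to both IFITM2 and IFITM1, so it names neither gene alone. It read 9.03, 9.40 and 8.14 in Kbr arrays at 24 h, against 10.75, 10.85 and 9.58 in control arrays, and 8.01, 8.63 and 8.06 in Kbr arrays at 48 h, against 11.65, 11.39 and 10.74 in control arrays. The differences were -1.54 at 24 h (adjusted p = 0.0174) and -3.03 at 48 h (adjusted p = 0.000103), or -2.94 without Kbr 48 h replicate 3. The 24 h call ended with any of Kbr 24 h replicate 3, control 24 h replicate 1 and control 24 h replicate 2 left out (adjusted p = 0.0652, 0.0706 and 0.0632), and with no filter (0.074). Its neighbours IFITM2 and IFITM3, which restrict virus fusion in endosomes, fell by 1.15 each at 24 h (adjusted p = 0.0227 and 0.0174) and by 2.54 and 2.37 at 48 h (adjusted p = 7.1e-05 and 7.73e-05). These are near-identical genes read by probe sets with the suffix _x_at, whose probes can bind more than one transcript, so their values are not independent of each other.

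ISG15 was called at neither time. Probe set 205483_s_at read 9.98, 10.90 and 10.62 in Kbr arrays at 24 h, against 10.17, 10.80 and 10.71 in control arrays. The groups overlapped, with a difference of -0.06 (SE 0.33, adjusted p = 0.915) and pairs at -0.18, 0.10 and -0.09. At 48 h it read 9.02, 9.64 and 10.10 in Kbr arrays, against 9.50, 10.28 and 10.17 in control arrays. The difference was -0.40 (adjusted p = 0.322), with pairs at -0.48, -0.65 and -0.07, and it was called with the replicate block (adjusted p = 0.0252). It was -0.66 with Kbr 48 h replicate 3 left out (adjusted p = 0.124).

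IFI6, a small membrane protein that limits apoptosis, had a reading that hardly varied. Its probe set 204415_at read 6.41, 6.41 and 6.41 in Kbr arrays at 24 h, against 6.41, 6.41 and 6.29 in control arrays, and stayed between 6.29 and 6.54 over all 12 arrays. The differences were 0.05 at 24 h (adjusted p = 0.72) and -0.03 at 48 h (adjusted p = 0.746). Without detection calls, steady IFI6 message and a background reading cannot be told apart in such near-identical values. OAS1 ranged from 3.15 to 3.84 on 205552_s_at, and MX1 from 2.64 to 2.96 on 202086_at. All of these values are below the level tested. Fitted without the filter, OAS1 had an adjusted p of 0.932 at 24 h and 0.167 at 48 h on 205552_s_at, 0.308 and 0.842 on 202869_at, and MX1 had 0.992 and 0.31.

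**Figure D3:**
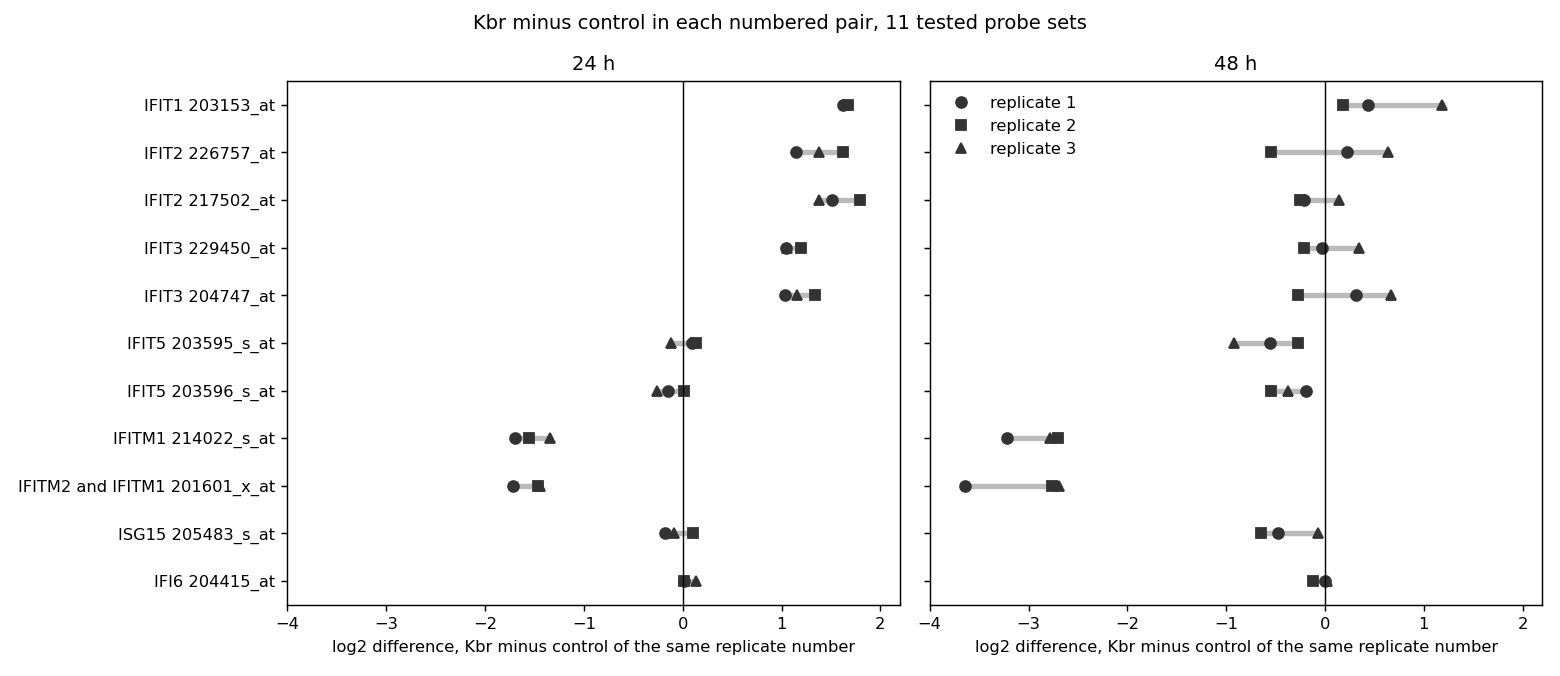
Kbr minus control of the same replicate number on the log2 scale (x axis) for the 11 tested probe sets (y axis) at 24 h and 48 h, with a symbol per pair and a grey line over their range. At 24 h the 3 IFIT1 pairs lie between 1.62 and 1.67, and at 48 h they spread from 0.18 to 1.18, while all IFITM1 pairs are below 0 at both times.

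The difference between the Kbr effect at 48 h and that at 24 h was tested directly. It was called for 1 of the 11 probe sets, IFIT3 229450_at, whose effect was lower by 1.06 at 48 h (SE 0.19, adjusted p = 0.0187). Over all tested probe sets 1.56% had a higher and 2.73% a lower effect at 48 h. That call ended with Kbr 48 h replicate 2 left out (adjusted p = 0.0509). The difference was -1.05 for IFIT1 (adjusted p = 0.284) and -1.28 for IFIT2 226757_at (adjusted p = 0.115), and for IFITM1, whose fall was larger at 48 h, it was -1.37 (adjusted p = 0.143).

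When the fit blocked on the replicate number, 8 of the 11 probe sets had a lower Kbr effect at 48 h than at 24 h. Of all 22215 probe sets 2043 were called lower and 1553 higher, 16.2% in either direction. The 8 were those of IFIT1 (adjusted p = 0.0425), IFIT2 (0.0174 and 0.00463), IFIT3 (0.00691 and 0.0352), IFITM1 (0.0114) and 201601_x_at (0.0164), with IFIT5 203595_s_at (0.0485). For the probe sets of IFIT1, IFIT2 and IFIT3 the 24 h rise was smaller or absent at 48 h. For IFITM1 and 201601_x_at a fall was larger at 48 h, and for IFIT5 it was called at 48 h alone. In the same fit 41.7% of all probe sets were called at 24 h and 65.5% at 48 h, and IFIT1, higher, and ISG15, lower, joined the calls at 48 h.

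Kbr cultures at 48 h had less IFIT1, IFIT2 and IFIT3 message than Kbr cultures at 24 h. The differences were -1.29 for IFIT1 (adjusted p = 0.0476), -1.07 for IFIT2 226757_at (0.0427), and -1.17 and -1.24 for IFIT3 (0.00121 and 0.0255). The second IFIT2 probe set, 217502_at, was not called, at -1.31 (adjusted p = 0.0623). IFIT5 203595_s_at was lower by 0.55 (adjusted p = 0.0208). Thus limma called 5 of 11 probe sets lower and 0 higher, against 7.66% lower and 5.52% higher over all probe sets. At an unadjusted p under 0.05 limma gave 7 lower and 0 higher, and 6478 of all 22215 probe sets in either direction. With the block 8 were called lower, where 3552 of all 22215 probe sets were lower and 2710 higher. The block added IFIT2 217502_at (adjusted p = 0.00116), ISG15 at -0.91 (0.00228, and 0.0888 with no block) and IFITM1 at -0.59 (0.0357, and 0.307 with no block). The calls of IFIT1 and IFIT2 226757_at lay close to the threshold. With an array left out, that of IFIT1 held in 3 of 12 fits (adjusted p up to 0.165), those without Kbr 48 h replicate 3, control 48 h replicate 1 or control 48 h replicate 2. That of IFIT2 226757_at held in 4 of 12 (adjusted p up to 0.139), the same fits and the one without control 48 h replicate 3. Both ended without control 24 h replicate 1, 2 or 3, arrays outside this comparison, with the differences unchanged at -1.29 (adjusted p = 0.059, 0.0505 and 0.062) and -1.07 (0.0569, 0.0504 and 0.0561).

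The IFIT3 204747_at call between times was lost with Kbr 24 h replicate 2 or 3 left out (adjusted p = 0.0837 and 0.08), and with Kbr 48 h replicate 1 or 2 left out (0.0964 and 0.0666). That of IFIT5 was lost without Kbr 24 h replicate 1 (0.0755), Kbr 24 h replicate 2 (0.0619) or Kbr 48 h replicate 1 (0.0682). That of IFIT3 229450_at held without each of the 12 arrays in turn. With no filter the calls of IFIT1, IFIT2 and IFIT3 204747_at between times ended (adjusted p = 0.168, 0.148 and 0.0959). Those of IFIT1 and IFIT2 also ended under quantile normalization (0.0523 and 0.0542) and, like that of IFIT5, with the Kbr arrays alone (0.0877, 0.0591 and 0.0843).

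In control cultures 0 of the 11 probe sets were called by limma between 48 h and 24 h, where 0.851% of all were higher and 0.932% lower. At an unadjusted p under 0.05 limma also gave 0 of the 11, and 4197 of all 22215 probe sets. The largest differences were those of 201601_x_at at 0.87 (adjusted p = 0.272), IFITM1 at 0.78 (0.27) and ISG15 at -0.57 (0.371), and these 3 were called with the replicate block (adjusted p = 0.0294, 0.0214 and 0.0226). Of all 22215 probe sets the block called 3579 between the control groups. The larger fall of IFITM1 at 48 h thus came with a Kbr mean of 8.53 ± 0.31 at 48 h and 9.12 ± 0.55 at 24 h, and a control mean of 11.43 ± 0.32 at 48 h and 10.65 ± 0.70 at 24 h (SD, n = 3 each).

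Read with the brightest single-gene probe set of each gene, 3 of the 7 tested genes were higher and 1 was lower at 24 h, where 11.4% of 10574 genes were higher and 18.5% lower. Their median log2 fold change was 0.05, against -0.06 over all genes. At 48 h 0 were higher and 2 lower, where 26.1% were higher and 32% lower, and the median was -0.03, against -0.06. With the block 1 was higher and 3 were lower at 48 h. At both times this median was the value of IFI6, whose reading hardly varied, so it says little of the 7 genes as a set. At 24 h they ran from -1.53 for IFITM1 to 1.64 for IFIT1.

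Across the 12 arrays IFIT1, IFIT2 and IFIT3 followed each other, with Pearson r of 0.932 for IFIT1 and IFIT2, 0.879 for IFIT1 and IFIT3 and 0.840 for IFIT2 and IFIT3. IFIT1 had an r of 0.010 with IFIT5, 0.529 with ISG15 and -0.491 with IFITM1. IFIT5, the neighbour of IFIT1, had an r of 0.637 with IFITM1. These values describe arrays that share treatments, times and replicate numbers. Replicate 1 was also the lowest array in 4 of 4 groups for IFIT2 217502_at, IFIT3 204747_at and ISG15, though not for IFITM1, for which it was the lowest in 0 of 4.

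Of 10567 other genes compared, those whose pattern was most like the mean of IFIT1, IFIT2 and IFIT3 were CPNE3 (r = 0.943), OASL (0.940), ZCCHC17 (0.918), INTS10 (0.915) and WWP1 (0.899), over 12 arrays. OASL, a relative of OAS1 without its enzyme activity, is the interferon-stimulated gene among them. CPNE3 had a log2 fold change of 0.44 at 24 h (adjusted p = 0.00627) and 0.21 at 48 h (adjusted p = 0.0781). The genes most like IFITM1 were IFITM3, IFITM2 and SLC25A37 (0.988 each), BDH2 and TFAP2A (0.987 each). TFAP2A, a transcription factor, fell by 0.80 at 24 h (adjusted p = 0.00438) and by 1.51 at 48 h (adjusted p = 2.16e-05).

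Among 45 other interferon-stimulated effectors, 32 were tested, and both directions were present at 24 h. There 2 were higher and 7 lower, with a median log2 fold change of -0.28, where 11.4% of all genes were higher and 18.5% lower, so that the lower share was near that of all genes. At 48 h 0 were higher and 16 lower, with a median of -0.50, where 26.1% of all genes were higher and 32% lower. At an unadjusted p under 0.05 limma also gave 0 higher at 48 h. The 48 h counts were the same without Kbr 48 h replicate 3, with a median of -0.55. OASL rose to 7.08 ± 0.62 in Kbr cultures at 24 h, against 5.70 ± 0.37 in control cultures, a log2 fold change of 1.38 (adjusted p = 0.0147). RSAD2, or viperin, which makes a chain-terminating nucleotide, rose by 1.23 (adjusted p = 0.0414). At 48 h OASL stood at 0.46 (adjusted p = 0.279, and 0.0264 with the block) and RSAD2 at 0.31 (adjusted p = 0.532).

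TNFSF10, the death ligand TRAIL, had the largest fall of these effectors at 24 h. It averaged 10.57 ± 0.27 in Kbr and 12.46 ± 0.18 in control cultures at 24 h, and 9.08 ± 0.44 in Kbr and 12.56 ± 0.21 in control cultures at 48 h (SD, n = 3 each). The log2 fold changes were -1.89 (adjusted p = 0.000344) and -3.49 (adjusted p = 1.57e-06). IFI35, which binds the signalling partner NMI, fell by 3.56 at 48 h (adjusted p = 0.000111) and stood at -1.33 at 24 h (adjusted p = 0.0622, and 0.033 with the block). IFI44L, a feedback regulator, fell by 3.21 at 48 h (adjusted p = 0.00445) and stood at -0.98 at 24 h (adjusted p = 0.37, and 0.0136 with the block).

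With the block 2 of these effectors were higher and 15 lower at 24 h, and 1 was higher and 19 lower at 48 h. Of all probe sets the block called 41.7% at 24 h and 65.5% at 48 h, in either direction. The 24 h call of OASL was lost with Kbr 24 h replicate 2 or control 24 h replicate 1 left out (adjusted p = 0.0574 and 0.0635), and those of IFITM2 and IFITM3 without Kbr 24 h replicate 3 (0.0864 and 0.0649), control 24 h replicate 1 (0.0889 and 0.0726) or control 24 h replicate 2 (0.0818 and 0.0634). IFITM2 was also lost without Kbr 24 h replicate 1 (0.0514). RSAD2 held in 4 of 12 such fits, those without Kbr 24 h replicate 3, Kbr 48 h replicate 3, control 48 h replicate 1 or control 48 h replicate 2, with adjusted p up to 0.141 in the others. A further 10 effectors, IFI27, OAS2, MX2 and XAF1 among them, did not pass the filter, with values of 1.90 to 4.08.

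The interferon genes themselves stayed below the tested level. All 18 with a probe set of their own, type I, II and III, lay between 1.99 and 2.62 in every array, and 0 were tested. Their values were summed on the linear scale in each array. The log2 of that sum was 6.44 to 6.46 in Kbr arrays and 6.40 to 6.44 in control arrays at 24 h. At 48 h it was 6.43 to 6.46 in Kbr arrays and 6.42 to 6.44 in control arrays. Whether interferon was secreted was not measured.

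Of the receptors and kinases through which interferons signal, 7 of 9 were tested, and limma called 0 higher and 3 lower at each time (0 higher at an unadjusted p under 0.05 too), or 4 lower with the block. Of all genes 11.4% were higher and 18.5% lower at 24 h, and 26.1% were higher and 32% lower at 48 h. The kinase TYK2 fell by 0.71 at 24 h (adjusted p = 0.0155) and by 1.08 at 48 h (adjusted p = 0.00048). IFNGR2, a chain of the interferon gamma receptor, fell by 0.69 and 1.05 (adjusted p = 0.00151 and 2.26e-05), and IFNAR2 by 0.42 and 0.67 (adjusted p = 0.0232 and 0.000627). The 24 h calls were lost without Kbr 24 h replicate 2 or control 24 h replicate 1 for TYK2 (adjusted p = 0.0588 and 0.0655) and IFNAR2 (0.0841 and 0.0614), and for IFNAR2 also without control 24 h replicate 3 (0.066).

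Among interferon regulatory factors and STATs, 7 of 12 were tested, with 1 higher and 2 lower at 24 h and 1 higher and 3 lower at 48 h. These counts are near the shares over all genes, 11.4% higher and 18.5% lower at 24 h and 26.1% and 32% at 48 h. IRF1, which activates many of the same promoters, was the higher gene, at 7.49 ± 0.08 in Kbr and 6.40 ± 0.28 in control cultures at 24 h (1.09, adjusted p = 0.00425). It was still higher at 48 h, by 1.19 (adjusted p = 0.000721). STAT3 fell by 0.82 and 1.23 (adjusted p = 0.00139 and 2.26e-05) and IRF2, an antagonist of IRF1, by 0.90 at 48 h (adjusted p = 0.00806). IRF5 fell by 0.77 at 24 h (adjusted p = 0.0181), a call lost without Kbr 24 h replicate 2 (0.0601) or control 24 h replicate 1 (0.077). IRF9 stood at 0.08 at 24 h (adjusted p = 0.791) and fell by 0.56 at 48 h (adjusted p = 0.021), a call lost without Kbr 48 h replicate 1 (0.0725) or 2 (0.0689) or control 48 h replicate 1 (0.0658) or 3 (0.0809).

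Nucleic acid sensors and their adaptors were mixed, with 10 of 16 tested, 4 higher and 1 lower at 24 h, where 11.4% of all genes were higher and 18.5% lower. At 48 h 4 were higher and 3 lower (4 and 4 with the block), where 26.1% of all were higher and 32% lower. CGAS, the cytosolic DNA sensor, averaged 7.54 ± 0.33 in Kbr and 6.27 ± 0.25 in control cultures at 24 h, and 7.62 ± 0.53 in Kbr and 5.30 ± 0.55 in control cultures at 48 h. It rose by 1.27 (adjusted p = 0.0135) and 2.32 (adjusted p = 0.000119), and the 24 h call was lost without control 24 h replicate 1 (adjusted p = 0.0568). The adaptor TRAF3 rose by 0.87 and 1.11 (adjusted p = 0.000992 and 3.75e-05) and the kinase TBK1 by 0.55 and 0.86 (adjusted p = 0.00424 and 6.69e-05). MAVS, the adaptor of the RNA sensors, fell by 0.54 and 0.69 (adjusted p = 0.00491 and 0.00029), and the RNA sensor IFIH1 fell by 1.63 at 48 h (adjusted p = 0.00137). Without Kbr 48 h replicate 3, 4 were higher and 2 lower at 48 h. STING1, the partner of CGAS, was below the tested level.

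The ISG15 conjugation list, ISG15 included, had 4 of 6 members tested, and limma called 0 of them at either time. Of all genes 11.4% were higher and 18.5% lower at 24 h, and 26.1% and 32% at 48 h. At an unadjusted p under 0.05 limma gave 0 of the 4 at 24 h and 1, lower, at 48 h. HERC5, the ligase that attaches ISG15, stood at 0.35 at both times (adjusted p = 0.158 and 0.102), and HERC6 at -0.19 and -0.36 (adjusted p = 0.411 and 0.0786). With the block HERC5 was called higher at both times (adjusted p = 0.0208 and 0.0116), and ISG15 and HERC6 lower at 48 h (adjusted p = 0.0252 and 0.0364). Without control 48 h replicate 2 HERC5 was called at 48 h at 0.49 (adjusted p = 0.0385), and without control 48 h replicate 1 HERC6 was called at -0.55 (adjusted p = 0.00464). USP18, which removes ISG15, was below the tested level.

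Brakes on interferon signalling had 11 of 13 members tested, with 2 higher and 3 lower at 24 h (3 and 5 with the block) and 3 of each at 48 h (4 and 3 with the block), where 11.4% of all genes were higher and 18.5% lower at 24 h and 26.1% and 32% at 48 h. Without Kbr 48 h replicate 3, 2 were higher and 3 lower at 48 h. SOCS3, an inhibitor of JAK kinases, was lower at both times, with log2 fold changes of -1.22 and -1.44 (adjusted p = 0.00318 and 0.000302), and SOCS1, its relative, rose by 0.80 at 48 h (adjusted p = 0.00418). PIAS3, an inhibitor of STAT3, fell by 0.89 and 1.25 (adjusted p = 0.0235 and 0.00154) and PIAS2 rose by 0.66 and 1.37 (adjusted p = 0.00579 and 1.75e-05). The 24 h call of PIAS3 was lost without Kbr 24 h replicate 2 (0.079), Kbr 24 h replicate 3 (0.0666) or control 24 h replicate 1 (0.0947). CISH fell by 0.51 at 24 h (adjusted p = 0.00985).

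Genes of MHC class I presentation and the immunoproteasome, also induced by interferons, had 16 of 19 tested. At 24 h 1 was higher and 5 lower (2 and 8 with the block), with a median of -0.29, where 11.4% of all genes were higher and 18.5% lower. At 48 h 2 were higher and 10 lower (2 and 13 with the block), with a median of -0.65, where 26.1% and 32% of all were. Without Kbr 48 h replicate 3, 1 was higher and 13 were lower at 48 h. The peptide editors TAPBPL and TAPBP fell by 0.92 and 0.85 at 24 h (adjusted p = 0.000992 and 0.0043) and stood at -1.75 and -1.53 at 48 h (adjusted p = 3.77e-06 and 2.86e-05). PSMB9, an immunoproteasome subunit, fell by 0.81 and 1.82 (adjusted p = 0.00275 and 4.75e-06). The peptide trimmer ERAP2 fell by 0.63 and 1.65 (adjusted p = 0.031 and 3.89e-05), and its 24 h call was lost without Kbr 24 h replicate 2 (0.0834), Kbr 24 h replicate 3 (0.104), control 24 h replicate 1 (0.112) or control 24 h replicate 2 (0.0682).

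Genes known for their response to interferon gamma had 7 of 16 tested, with 1 higher and 1 lower at 24 h (1 and 2 with the block) and 3 higher and 2 lower at 48 h (3 and 1 without Kbr 48 h replicate 3). Over all genes 11.4% were higher and 18.5% lower at 24 h, and 26.1% and 32% at 48 h. IRF1 and SOCS1 are described above. GBP2, a GTPase of the guanylate-binding family, fell by 0.92 at 24 h (adjusted p = 0.0468) and by 2.04 at 48 h (adjusted p = 0.000221). Its 24 h call held in 3 of 12 fits with an array left out, those without Kbr 24 h replicate 2, control 24 h replicate 3 or control 48 h replicate 1, with adjusted p up to 0.151 in the others. WARS1, a tRNA synthetase, rose by 0.60 at 48 h (adjusted p = 0.0224), a call lost without Kbr 48 h replicate 1 (0.0885) or 2 (0.0521) or control 48 h replicate 1 (0.0622) or 2 (0.0626). The chemokine genes CXCL9, CXCL10 and CXCL11 were among 9 members below the tested level, at 1.88 to 3.08.

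With no filter some of these calls ended, at adjusted p of 0.0501 to 0.147. They were the 24 h calls of OASL, RSAD2, IFITM2, IFITM3, TYK2, IRF5, CGAS, PIAS3, ERAP2 and GBP2 and the 48 h calls of IRF9 and WARS1. With the arrays of that time alone the calls of IFITM2 (adjusted p = 0.0565), IFITM3 (0.054), RSAD2 (0.0541), GBP2 (0.102) and IRF9 (0.0588) ended, and under quantile normalization those of GBP2 (0.0627) and IRF9 (0.0763). With an offset of 32 on the linear scale IRF5 stood at -0.33 at 24 h (adjusted p = 0.0533).

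**Figure D4:**
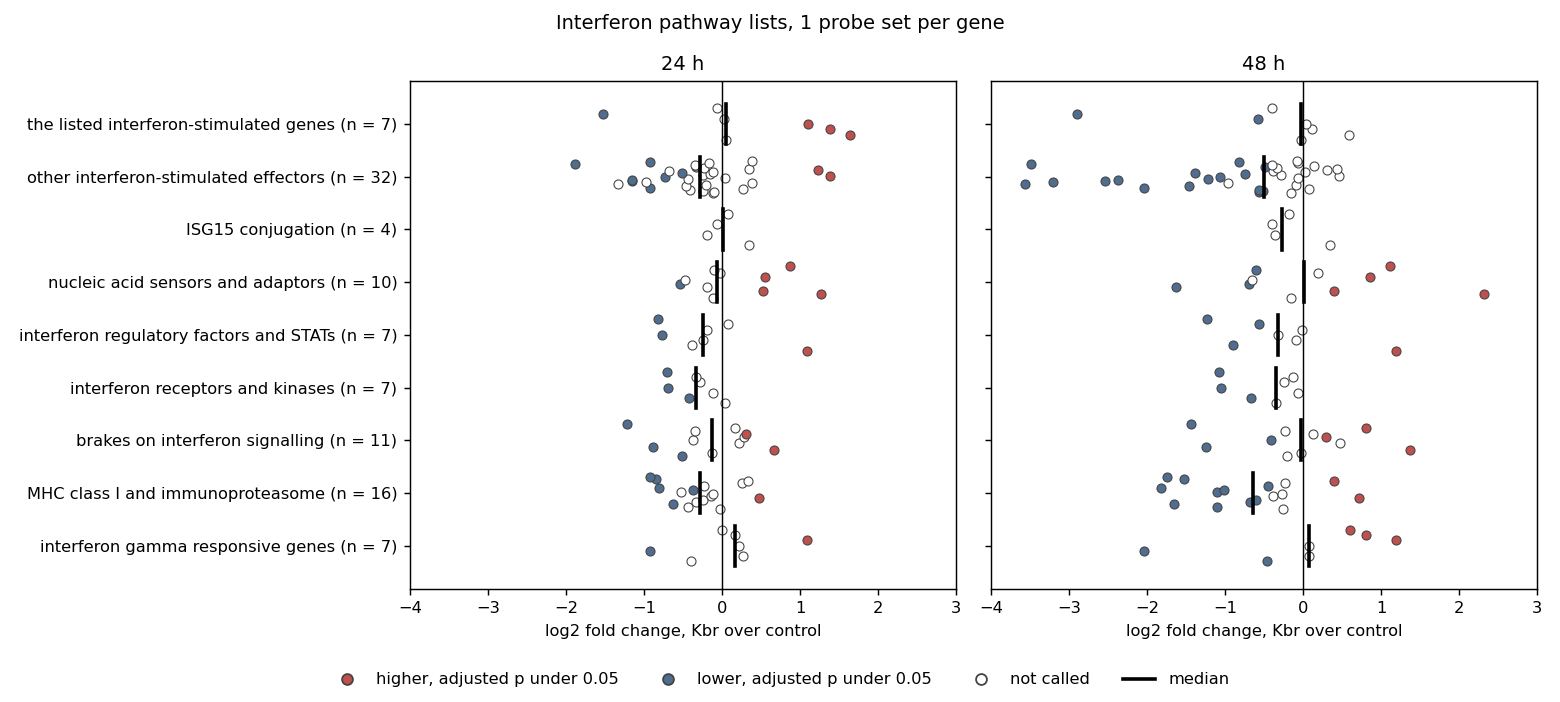
Log2 fold change of Kbr over control (x axis) at 24 h and 48 h for each tested gene of the interferon pathway lists (y axis, number tested in brackets), with called genes filled (red higher, blue lower), uncalled genes open and list medians as black bars. The other interferon-stimulated effectors have 2 higher and 7 lower genes at 24 h and 0 higher and 16 lower at 48 h.

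The arrays were checked against markers of HK-2 and of other cells. Kidney epithelial markers were read, with 8 of 15 tested, namely KRT8, KRT18, KRT19, EPCAM, PAX8, CDH1, CDH2 and SLC3A1. Of the mature proximal tubule markers, LRP2, CUBN, SLC34A1 and AQP1 were below the tested level, whereas SLC3A1 was tested and called at both times. At 24 h 1 of the 8 tested was higher and 3 were lower (1 and 6 with the block), where 11.4% of all genes were higher and 18.5% lower. At 48 h 2 were higher and 6 lower (1 and 6 without Kbr 48 h replicate 3), where 26.1% of all were higher and 32% lower. Of 14 leukocyte markers 11 had a probe set of their own and 0 were tested. The log2 of their summed linear values was 5.98 to 6.01 in Kbr and 5.94 to 5.99 in control arrays at 24 h. At 48 h it was 6.00 to 6.03 in Kbr and 5.96 to 5.98 in control arrays. Plasmacytoid dendritic cells, the main makers of interferon in blood, had 3 of 6 markers tested and endothelium 1 of 8, and limma called 0 of them at either time (also 0 at an unadjusted p under 0.05). The shares of all genes were 11.4% higher and 18.5% lower at 24 h, and 26.1% and 32% at 48 h. The tested markers were LILRA4, TCF4 and IRF7 for plasmacytoid dendritic cells and TEK for endothelium, while CLEC4C and PECAM1 did not pass the filter. The 7 endothelial markers that did not pass ranged from 2.35 to 4.81.

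The fibroblast markers that passed the filter were lower with Kbr, as IFITM1 was. COL1A1, DCN and LUM, the 3 of 7 that were tested, were lower at both times, where 18.5% of all genes were lower at 24 h and 32% at 48 h. COL1A2, COL3A1, PDGFRA and PDGFRB were below the tested level. The log2 of the summed linear values of the list was 11.42 to 11.84 in Kbr and 12.37 to 12.88 in control arrays at 24 h. At 48 h it was 10.19 to 10.61 in Kbr and 12.28 to 12.34 in control arrays. The part of the fibroblast markers in the fall of IFITM1 and the effectors was not tested.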

How the data were processed

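Total RNA of 12 HK-2 cultures was copied into biotinylated cRNA for Affymetrix arrays, per the labels' protocols. The authors deposited log2 values from GCRMA, whose version is not given in the submitters' processing notes. No detection calls were given. The labels gave the groups and replicate numbers. Probe sets were named from the platform's annotation, and 201601_x_at, with 2 symbols, was kept apart.

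limma 3.58.1 (R 4.3.3) was fitted to all 12 arrays without a block (two-sided, with 8 residual degrees of freedom and 2.81 from the prior), on probe sets that exceeded 4 on 3 or more arrays, with Benjamini-Hochberg adjustment over all 22215. SE is the moderated standard error. Precision is limited by the number of arrays. List genes were read from the brightest single-gene probe set, and per list up to 4 called genes with the largest change at each time are named. The members and lists were chosen with earlier results of these data known.

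After group means were removed, 18 same-number pairs of arrays correlated at 0.238 to 0.611 and 36 others at -0.397 to -0.005, so the labels' numbers pair the arrays. The fit was tested on simulated data. Alternatives were other thresholds, filters, scalings, priors and array weights, 1 probe set per gene, the replicate block, only the groups compared, and each array left out. Sequences and positions are RefSeq's (GRCh38.p14). Python 3.11.15, pandas 2.3.3 and matplotlib 3.10.9 made the tables and plots.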

Additional observations from a re-analysis of the deposited data

Results flagged for a closer look

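The Kbr effect at 48 h differed from that at 24 h, by limma's test of the difference itself, for IFIT3, for TNFSF10, TAPBPL and PSMB9, and for PSMB8 and DCN, the last 2 chosen after their values were seen. That of IFIT3 229450_at was lower by 1.06 at 48 h (SE 0.19, adjusted p = 0.0187, and 0.00691 with the replicate block), that is -1.06: the gene was higher with Kbr at 24 h and near control at 48 h. That call held in 11 of 12 fits with an array left out, all but the one without Kbr 48 h replicate 2 (adjusted p = 0.0509). For the other 5 a fall at 24 h was larger at 48 h. The difference was -1.60 for TNFSF10 (SE 0.31, adjusted p = 0.0232), -0.82 for TAPBPL (SE 0.19, adjusted p = 0.0385), -1.0 for PSMB9 (SE 0.20, adjusted p = 0.0272), -0.65 for PSMB8, an immunoproteasome subunit (SE 0.13, adjusted p = 0.0286), and -0.91 for DCN, a fibroblast marker (SE 0.22, adjusted p = 0.0479). With an array left out the adjusted p of TNFSF10 was above 0.05 in 4 of 12 fits, those without Kbr 24 h replicate 2 or 3, control 24 h replicate 3 or control 48 h replicate 2, and reached 0.0648. That of PSMB9 held in 5 of 12 fits, those without Kbr 24 h replicate 3, Kbr 48 h replicate 3, control 24 h replicate 1 or 2 or control 48 h replicate 3, and reached 0.0734 in the others. That of TAPBPL held without Kbr 48 h replicate 3 or control 48 h replicate 3 and reached 0.0969 in the other 10 fits. That of PSMB8 held in 4 of 12 fits, those without control 24 h replicate 1 or 2, Kbr 48 h replicate 3 or control 48 h replicate 3, and that of DCN in 2 of 12, those without control 24 h replicate 1 or Kbr 48 h replicate 3, with adjusted p up to 0.0746 and 0.11 in the others. With no filter the calls of TNFSF10, PSMB9, TAPBPL and DCN ended (adjusted p = 0.0677, 0.0623, 0.0765 and 0.113), with median centring that of DCN did (0.0562), and under quantile normalization that of TAPBPL ended (0.0555). The effect at each time was measured against its own control group.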

How the results depend on the processing

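With 3 arrays a group, small changes and those of dim probe sets can be missed, though some were called, such as IFIT5 203596_s_at at -0.37 at 48 h. For the 9 genes, 1181 of 1289 alternative values kept direction and side of the threshold, 63 fell below it, 22 rose above it and 23 changed sign, and for other named genes 1605, 164, 14 and 6 of 1789. The calls of IFIT1, IFIT2 226757_at, IFIT3 229450_at and IFITM1 at 24 h and of IFITM1 and IFIT5 203595_s_at at 48 h held with any array left out and under every scaling. Causes of the moves below were not tested.

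Probe sets called by limma at 24 h (5705) were 2731 at an adjusted p under 0.01, 1432 at 2-fold or more, 3429 with 1 probe set per gene (fewer tested), 9254 with the replicate block, and 3509 (without control 24 h replicate 1) to 6427 with an array left out. Those at 48 h (12130) were 5001 at 2-fold, 6306 with 1 probe set per gene, and 10522 to 12015 with an array left out. For the difference between times (953) they were 41, 537 at 2-fold, 432 without a filter, 590 with 1 probe set per gene, 2600 with array weights, 3596 with the block, and 224 (without control 24 h replicate 3) to 2441 (without Kbr 48 h replicate 3). For control 48 h against 24 h (396) they were 18, 128, 217 without a filter, 665 with an offset of 32, 3579 with the block, 0 with only those groups (3691 at an unadjusted p under 0.05), and 17 to 875. For Kbr 48 h against 24 h (2929) they were 808, 689, 1661 without a filter, 1813 with 1 probe set per gene, 7125 with array weights, 1398 with only those groups, 6262 with the block, and 1113 to 4869. The counts for the 9 genes at 24 h (7) were 3 at an adjusted p under 0.01, 4 without a filter, 4 with 1 probe set per gene, and 4 to 7 with an array left out. At 48 h (4) they were 2 at 2-fold, 2 with 1 probe set per gene and 3 to 4. For the difference (1) they were 0 at an adjusted p under 0.01, 8 with the block, and 0 to 1. At an unadjusted p under 0.05 limma gave 6 for the difference, and 4943 of all 22215 probe sets. The block changed no other call of the 9 genes than those the report gives.

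Signs turned for uncalled values alone. Under quantile normalization the 48 h difference was 0.07 for IFIT2 217502_at and 0.11 for IFI6, and with array weights it was -0.09 for IFIT3 229450_at. With array weights IFI6 stood at -0.00 between times in Kbr arrays and WARS1 at 0.01 at 24 h. With an array left out, the 48 h values ran from -0.07 to 0.46 for IFIT2 226757_at, -0.31 to 0.15 for IFIT2 217502_at, -0.13 to 0.14 for IFIT3 229450_at, -0.05 to 0.56 for IFIT3 204747_at, -0.06 to 0.01 for IFI6 and -0.11 to 0.59 for RSAD2. Those at 24 h ran from -0.01 to 0.09 for IFIT5 203595_s_at, -0.26 to 0.20 for ISG15, -0.01 to 0.21 for IRF9 and -0.10 to 0.16 for WARS1. Between control times they ran from -0.54 to 0.04 for IFIT1, -0.14 to 0.39 for IFIT2 226757_at, -0.01 to 0.61 for IFIT2 217502_at and -0.02 to 0.11 for IFIT5 203596_s_at, and between Kbr times from -0.01 to 0.01 for IFI6.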
